A study of Mus musculus with 2 samples.

Results

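A set of 5 miRNAs that textbooks place among those abundant in naive and resting T cells was compared between helper (CD4+) T cells of the spleen and those of the intestinal lamina propria, a layer of connective tissue beneath the gut epithelium. They were taken by their miRBase accessions: miR-150-5p (MIMAT0000160), miR-342-3p (MIMAT0000590), miR-139-5p (MIMAT0000656), miR-26a-5p (MIMAT0000533) and miR-26b-5p (MIMAT0000534), which are 5 of the 739 rows of the array table. All 5 had a value on both arrays, as did 353 rows in all, and no filter on low values was applied to them. The spleen array had a value for 516 rows and the lamina propria array for 378. Shares and ranks over the 353 rows leave out rows with a value on 1 array only. Both groups were female C57BL/6 mice aged 10 weeks and heterozygous for Il10 (IL-10 +/-), the gene of an anti-inflammatory cytokine, so the spleen cells carried the same genotype as the lamina propria cells and no wild-type group is analysed here. The T cells were sorted with magnetic beads (MACS) in either case. The labels name collagenase, an enzyme that frees cells from tissue, for lamina propria alone, so an effect of that digestion and one of the tissue cannot be told apart. Each tissue was represented by 1 array, a 1-colour array of Hy5-labelled RNA, and the sources used here do not say how many mice it stands for. Every value below therefore has n = 1 and no error, no test of the tissue difference was possible, and the number of arrays limits the precision.

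miRNAs are short RNAs that guide Argonaute proteins to messenger RNAs, mostly through pairing of the seed, bases 2 to 8 of the miRNA, and thereby lower the output of those messages. In lymphocytes miR-150 is a marker of the mature resting state: it is abundant in naive T and B cells, its level drops after activation, and the transcription factor Myb is its best known target. miR-342 and miR-139 are made from introns of protein-coding genes, and the miR-26 family, known for repression of Ezh2, a histone methyltransferase, is made from introns of genes for small phosphatases of the Ctdsp group. Levels of several of these miRNAs are known to drop when naive T cells turn into effector cells.

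Mature sequences are shown first, because they tell which of the 5 miRNAs can act on the same targets and which probes face near-identical RNAs. RefSeq's table for GRCm38.p6 held 4 of the 5 by name, and these are written 5′ to 3′ with the seed in capitals.
miR-342-3p: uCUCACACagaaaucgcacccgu
miR-139-5p: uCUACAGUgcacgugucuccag
miR-26a-5p: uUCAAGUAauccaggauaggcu
miR-26b-5p: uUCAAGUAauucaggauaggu

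The seeds sort these 4 into 3 groups. miR-26a-5p and miR-26b-5p share the seed UCAAGUA, and no other of the 1679 mature names in the table has it. The seeds of miR-342-3p (CUCACAC) and miR-139-5p (CUACAGU) were each held by 1 name only. The pair of miR-26 sequences is identical at 19 of the 21 positions they both have. Counted from 1 at the 5′ end with no gap allowed, and with the base of miR-26a-5p first, the substitutions are C11U and C21U. Because miR-26a-5p is 22 bases long against 21 for miR-26b-5p, the difference at position 21 can equally be read as a C missing from miR-26b-5p. How far each miR-26 probe also binds the other miRNA was not tested. The 2 rows enter the counts and medians below separately, but they may not be independent measurements.

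The 4 miRNAs come from 5 loci, all on the plus strand and each inside the bounds of a protein-coding gene of the same assembly. Mature miR-342-3p lies at chr12:108658680-108658702 within Evl, which encodes a regulator of actin filaments. miR-139-5p lies at chr7:101475382-101475403 within Pde2a, which encodes a cyclic nucleotide phosphodiesterase. miR-26a-5p is made from both chr9:119031811-119031832 within Ctdspl and chr10:126995543-126995564 within Ctdsp2, so its single row sums 2 loci. miR-26b-5p lies at chr1:74394324-74394344 within Ctdsp1. The table used here gives gene bounds without exons.

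All 5 miRNAs were lower in lamina propria than in spleen CD4+ T cells, by 2.82-fold to 8.64-fold. They formed a more strongly lower set of miR-342-3p, miR-150-5p and miR-139-5p, each at least 4-fold lower, and a less strongly lower pair, miR-26a-5p and miR-26b-5p, near 3-fold. The median log2 ratio of lamina propria to spleen over the 5 was -2.58, or 5.97-fold lower, against 0.0093 over the 353 rows on both arrays. At least 2-fold lower were 5 of 5, against 25.8% of the 353 rows, and at least 4-fold lower were 3 of 5, against 8.5%. None of the 5 was higher in lamina propria, where 16.1% of the rows were at least 2-fold higher. These values are ratios of deposited intensities, linear and in arbitrary units, with no further scaling. The arrays measured RNA of whole cell preparations, so fewer cells holding a miRNA and less of it per cell cannot be told apart.

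The brightest of the 5, miR-150-5p, read 5314 in spleen cells and 622 in those of lamina propria. The lamina propria value was 11.7% of the spleen value, a log2 ratio of -3.09 or 8.54-fold lower. It was the 6th brightest row of the spleen array and the 21st of the lamina propria array, an order that also depends on each probe's own brightness. Of all signal on the array, it gave 3.90% in spleen and 0.341% in lamina propria, an 11.4-fold smaller share. A run of 15 adjoining accessions around the brightest row held 57.8% and 77.0% of that total, and without it the shares of miR-150-5p were 9.24% and 1.48%, a 6.23-fold difference. Only 3 of the 353 rows had a lower ratio. The lowest values listed were 1.39 on the spleen array and 2.88 on the lamina propria array, and miR-150-5p stood at 3823 and 216 times these.

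miR-342-3p, the Evl-hosted miRNA, read 487 in spleen against 56.4 in lamina propria. Its log2 ratio was -3.11, or 8.64-fold lower, the 3rd lowest of the 353 rows. The lamina propria value was 19.6 times the lowest one there. The ratios of miR-342-3p and miR-150-5p differed by only 0.017 on the log2 scale, although their spleen intensities were far apart. That closeness held under any single factor between the arrays, but not after removal of the trend of ratio with level or quantile normalization, where the 2 ratios were 0.78 and 0.98 apart and miR-150-5p was the lower.

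miR-139-5p, the Pde2a-hosted miRNA, was the dimmest of the 5. Its intensity was 44.6 in spleen against 7.46 in lamina propria. The log2 ratio of -2.58, or 5.97-fold lower, was the 12th lowest of the 353. Its lamina propria value was only 2.59 times the minimum there. With 10 added to both values before log2 the ratio was -1.64, the largest move of the 5 under that setting.

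miR-26a-5p, the brighter of the miR-26 family, read 1221 in spleen against 433 in lamina propria. Its log2 ratio was -1.50, or 2.82-fold lower, so 35.4% of the spleen value was seen in lamina propria. miR-26b-5p read 162 in spleen against 53.7 in lamina propria, with a log2 ratio of -1.59, or 3.02-fold lower. The 2 family members thus had nearly the same ratio, 0.097 apart on the log2 scale, at intensities that differed on both arrays. Under the scalings that change with level they were less close: the pair was 1.12 apart after quantile normalization and 0.45 apart after trend removal, miR-26b-5p then being only 1.08-fold and 1.52-fold lower. As deposited, their ratios ranked 67th and 55th from the lowest of the 353 rows.

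**Figure D1:**
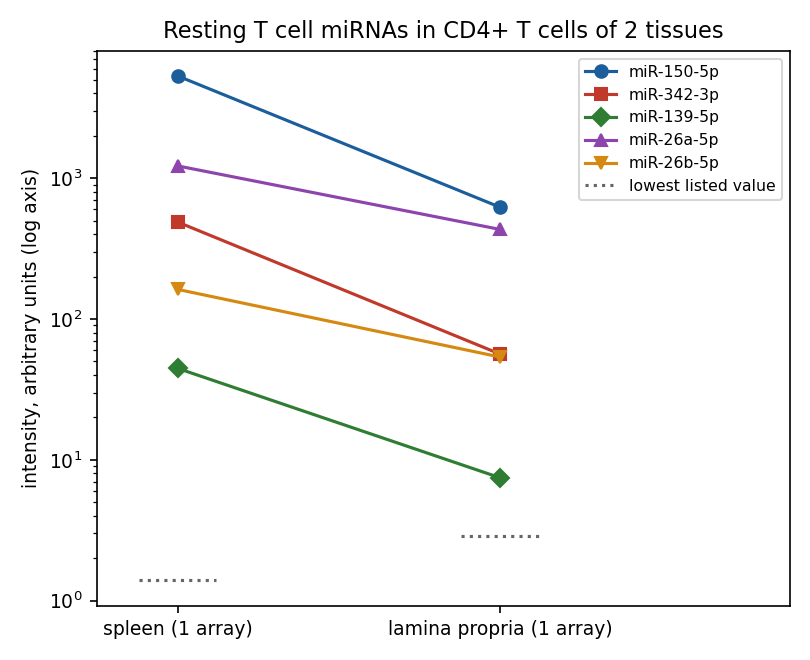
Deposited intensity (arbitrary units, log axis) of each of the 5 miRNAs on the spleen and the lamina propria array, 1 array each; dotted lines mark the lowest value listed on each array, 1.39 and 2.88. All 5 lines descend from spleen to lamina propria, with miR-342-3p meeting miR-26b-5p there (56.4 and 53.7), and miR-139-5p ends near the lowest listed value.

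The gap between the 2 sets is a comparison of ratios within the same pair of arrays, which no single scaling factor can change. The 2 sets were split on these same deposited ratios. The direction of the 6 gaps as deposited was thus fixed by the split, and the gaps are a description. The ratio of miR-150-5p was 3.03-fold below that of miR-26a-5p and 2.83-fold below that of miR-26b-5p. The ratio of miR-342-3p was 3.06-fold and 2.86-fold below them, and that of miR-139-5p 2.12-fold and 1.98-fold. These 6 gaps kept their direction after removal of the trend with level, at 2.15-fold to 5.14-fold, and after quantile normalization, at 1.80-fold to 7.72-fold. The gap of miR-342-3p to miR-26a-5p was the narrowest under quantile normalization. With 10 added to both values, the gaps of miR-139-5p to miR-26a-5p and miR-26b-5p shrank to -0.17 and -0.21 on the log2 scale. With 1 array per tissue, no spread exists to set these gaps against.

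Level and accession number set the background for these counts. The upper 50% by mean log2 level is made up of 177 rows, all 5 miRNAs among them, and 41.2% of it was at least 2-fold lower, with 14.7% past 4-fold. All 5 also have registry numbers under 1000, a group picked after its low ratios were seen. The other 74 such rows of that upper part were 2-fold or more lower in 66.2% of cases and 4-fold or more in 21.6%, with a median log2 ratio of -1.51 and quartiles of -1.89 and -0.27. The 98 rows of the upper part with higher numbers had a median of 0.11, and past 2-fold there stood 19 in either direction. miR-26a-5p and miR-26b-5p lay within 0.1 of -1.51, the median of the other 74 low-numbered rows, and inside the quartiles of those rows. miR-150-5p, miR-342-3p and miR-139-5p lay below the lower quartile, at 3rd, 2nd and 6th lowest of the 79 rows of this group, the 5 included. The 2-fold count of 5 of 5 is therefore read against 66.2%, and the miR-26 pair was lower by about as much as the middle of that group.

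Among the rows brightest by mean log2 level of both arrays, the low ratios of miR-150-5p and miR-342-3p had no equal. A cut on mean level leaves out rows that are bright in spleen but dim in lamina propria. A row with 187.54 in spleen, above the 162.08 of miR-26b-5p, had a lower ratio, -4.23, but a mean level under the cut. At or above the mean level of miR-26b-5p stood 65 rows, 4 of them from the 5 miRNAs. The lowest ratios of these 65 were those of miR-342-3p and miR-150-5p, and the lowest of the other 61 rows was -2.61, or 6.12-fold lower. Of those 61 rows 42.6% were at least 2-fold lower, and their median log2 ratio was -0.41. The level at which these rows were taken was set after the values were seen, so this is a description.

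**Figure D2:**
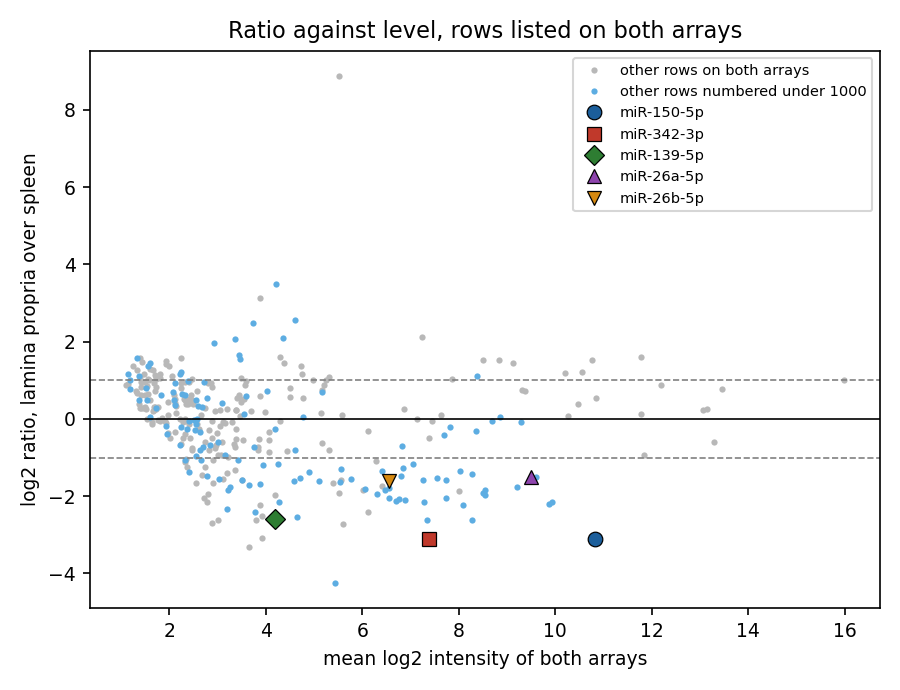
Log2 ratio of lamina propria to spleen against mean log2 intensity for the 353 rows on both arrays, with other rows numbered under 1000 in light blue and dashed lines at 2-fold. miR-342-3p and miR-150-5p (-3.11 and -3.09) lie beneath all other rows at or above the level of miR-26b-5p, while the miR-26 pair (-1.50 and -1.59) sits among the light blue points.

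On the deposited scale the summed intensity was 1.34 times higher in lamina propria (182481 against 136232) and the sources used here do not state how the authors scaled the arrays. The run of 15 adjoining accessions held 57.8% of the spleen total and 77.0% of the lamina propria total. Without that run the summed intensity was lower in lamina propria, not higher. Setting the totals without it equal moved the median log2 ratio of the 5 from -2.58 to -2.12, with all 5 still at least 2-fold lower. As deposited, 91 rows were at least 2-fold lower and 57 higher, whereas with the medians of the shared rows set equal 70 were lower and 107 higher. That setting raised every log2 ratio by 0.43, and all 5 miRNAs stayed at least 2-fold lower, from -2.68 for miR-342-3p to -1.07 for miR-26a-5p. Under quantile normalization and trend removal, the scalings that change with level, miR-150-5p, miR-342-3p and miR-139-5p stayed at least 4-fold lower. With 10 added to both values, however, miR-139-5p was at -1.64, short of 4-fold. Over the scalings that change with level, miR-26a-5p stayed just past 2-fold, at -1.23 after quantile normalization and -1.05 after trend removal. miR-26b-5p did not, at -0.11 and -0.60. After quantile normalization and trend removal, miR-150-5p had the 3rd and the 2nd lowest ratio of the 353 rows, at 8.35-fold and 7.79-fold lower. miR-342-3p went to the 16th and the 7th lowest, at 4.23-fold and 4.54-fold lower, and miR-139-5p was the 12th and the 9th lowest, at 4.52-fold and 4.46-fold. Set against the median of the other low-numbered bright rows, the ratios were -1.58 for miR-150-5p, -1.60 for miR-342-3p and -1.07 for miR-139-5p, but -0.083 for miR-26b-5p and 0.015 for miR-26a-5p, which thereby changed sign.

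**Figure D3:**
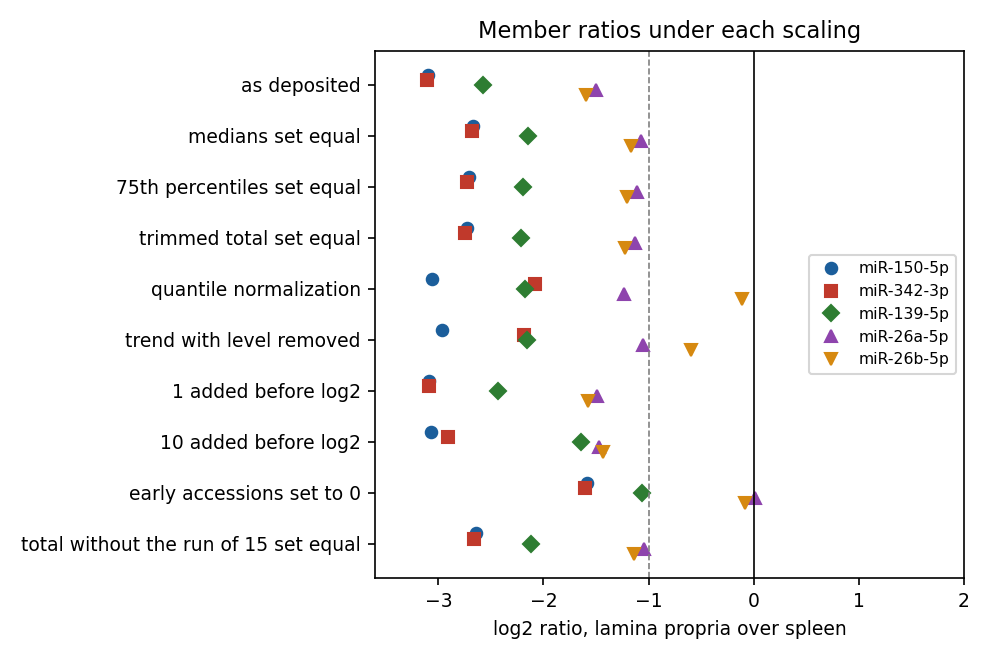
Log2 ratio of lamina propria to spleen of the 5 miRNAs as deposited and under each of 9 other settings, with a dashed line at 2-fold lower. miR-150-5p, miR-342-3p and miR-139-5p stay left of the dashed line throughout, whereas the miR-26 pair lies near 0 (-0.083 and 0.015) when the other low-numbered bright rows are set to 0 and miR-26b-5p also passes the line after quantile normalization (-0.11) and trend removal (-0.60).

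In the share of total signal, the 5 miRNAs together took 5.31% in spleen and 0.642% in lamina propria, 8.26-fold less. Without the run of 15 accessions in the total the shares were 12.6% and 2.79%, or 4.50-fold less. Most of this signal was miR-150-5p, without which the share of the other 4 in the whole total was 1.41% and 0.301%. The summed intensity of the 5 was 6.17-fold lower in lamina propria, and 3.48-fold lower without miR-150-5p, while that of the other 74 low-numbered bright rows was 2.54-fold lower.

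The rows most like each miRNA were the nearest ones in the plane of log2 spleen and log2 lamina propria intensity, that is, over 2 arrays. Nearest to miR-150-5p were MIMAT0000154, with 2067 in spleen and 463 in lamina propria, and MIMAT0000527, with 2000 and 437. The nearer one was 1.43 log2 units away, and they were 4.46-fold and 4.57-fold lower in lamina propria, so no row lay close to miR-150-5p. As the 6th brightest row of the spleen array it had few rows of like brightness. Distances between other bright rows were not computed, so whether this gap is unusual at that brightness was not tested. The other 4 miRNAs had their nearest row between 0.13 and 0.36 log2 units away, and each of their 8 nearest rows was itself between 2.83-fold and 6.09-fold lower. Rows close in both intensities must have similar ratios, so those fold values follow from the choice of rows. None of the 5 was among the 2 nearest rows of another. The sources used here pair no other accession with a name. The opposite arms of these hairpins, T cell activation miRNAs and markers of other cell types, and with them the labelled cell type, were therefore not assessed, and the part that other cells play in the ratios was not tested.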

How the data were processed

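The authors deposited 1 linear intensity value per miRNA row and array, with a blank where none is given; per the labels' protocols, RNA was extracted with a miRNA isolation kit and labelled with Hy5 (miRCURY LNA kit). Nothing on the scanner, background subtraction, detection rule or scaling is given in the sources used here. Rows were taken by accession, and ratios (log2, lamina propria over spleen) were computed with no scaling or pseudocount. Rows were counted at 2-fold over rows with both values. All 5 miRNAs are named, whatever their values; of the nearest rows, only those of miR-150-5p are printed by accession. The members and lists were chosen with earlier results of these data known. Other settings were equal medians, 75th percentiles or totals (less the 10 brightest rows), quantile normalization, lowess trend removal (fraction 0.5), 1 or 10 added, and 1.5-fold and 4-fold thresholds. No test was run with 1 array per tissue. The counting was tested on simulated data. Python 3.11.15, numpy 2.4.6, pandas 2.3.3, statsmodels 0.14.6 and matplotlib 3.10.9 were used.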

Additional observations from a re-analysis of the deposited data

How the results depend on the processing

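The median log2 ratio of the 5 miRNAs, -2.58 as deposited, was -2.15, -2.19 and -2.21 when medians, 75th percentiles or trimmed totals were made equal. It was -2.08 under quantile normalization, -2.16 once the trend was removed, -2.43 with 1 and -1.64 with 10 added. Chosen after seeing the data, it was -1.07 with the other low-numbered bright rows set to 0 and -2.12 with totals without the run of 15 adjoining accessions around the brightest row set equal. The number at least 2-fold lower was 3 in the former setting and 3 at 4-fold, 4 after quantile normalization and trend removal, and 5 in the remaining ones; none was 2-fold higher in any. miR-26a-5p changed sign, to 0.015, with the low-numbered rows set to 0. Of the rows on both arrays, 60 were lower after trend removal, 14 with low-numbered rows set to 0 and 30 at 4-fold, against 91 as deposited. Rows higher, 57 as deposited, numbered 107, 101 and 97 with medians, 75th percentiles and trimmed totals set equal, 109 with totals without the run, 227 with low-numbered rows set to 0, 36 and 18 with 1 and 10 added, 105 at 1.5-fold, 8 at 4-fold, 27 in the upper 50% and 30 without spleen values under 2.88. Single-factor scalings add 1 constant to every ratio, and thresholds and filters change counts by construction; for the other changes the cause was not tested. Scaling on pan-haematopoietic miRNAs was not run, since the sources used here give no names by which to find such rows among those on the arrays. No paired analysis was possible because there is a single array per tissue; leaving out a replicate was equally impossible. Signal over background is unknown.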
